A study of Mus musculus with 22 samples.

Results

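Histone H3 acetylated at lysine 27 (H3K27ac) was mapped by ChIP-seq in mouse G1E-ER4 cells, and this account covers the H3K27ac regions whose covered length grew between 0 h and 24 h of β-estradiol. The 10 H3K27ac peak lists were merged wherever peaks touched, which gave 24299 regions, of which 13217 held a peak in all 10 lists and are called constant here. A constant region was chosen by its covered length, the number of bp under peaks in a list. Both 24 h values had to exceed both 0 h values, and the 24 h mean had to be at least 1.3 times the 0 h mean. This left 1432 widening regions and 11785 other constant regions, of which 1047 met the mirrored rule and narrowed.

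G1E-ER4 cells (G1ER) are a single clonal line derived from Gata1-null mouse erythroid progenitors, and every sample carries a constitutively expressed fusion of GATA1 to the ligand-binding domain of the estrogen receptor. All cultures were grown with stem cell factor and erythropoietin, and 100 nM β-estradiol activates the fusion. The 22 peak lists fell into H3K27ac and H3K4me3 groups at 0, 2, 6, 12, and 24 h with 2 replicates each, and CTCF groups at 0 and 24 h with 1 list each. The 0 h samples stand for the state before β-estradiol. The study describes the replicates as independent experiments, all in this 1 clonal line, so the p-values measure the spread between experiments and not between lines or animals.

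H3K27ac lies on nucleosomes flanking active promoters and enhancers, where the acetyltransferases CBP and p300 deposit it. H3K4me3 marks active and poised promoters, and CTCF is the DNA-binding factor that anchors many chromatin loops. GATA1 recognises GATA letters in DNA and turns on globin, heme synthesis and red cell membrane genes as erythroid precursors mature, while it turns off genes of the progenitor state. A peak that becomes longer has a wider stretch of chromatin above the caller's threshold. A peak's length does not measure how much of the mark is present at its summit.

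The lists held 17247 to 18333 H3K27ac peaks and 12925 to 14452 H3K4me3 peaks, with a median H3K27ac peak length of 2132 to 2280 bp. They carry no read counts, so the depth behind each value is unknown. Of the erythroid marker genes, Klf1 and Hba-a1 had an H3K27ac peak over the transcription start site (TSS) in all 10 lists, Slc4a1 in 9, Alas2 in 4 and Epor in 2, whereas the TSSs of Gata1 and Tal1 had one in none. None of 5 macrophage and granulocyte markers and none of 4 lymphocyte markers had one in any list. Of 6 megakaryocyte markers, 3 (Itga2b, Gp1ba and Gp9) had one in all 10, and the 4 mast cell markers had one in 2 to 8. Whether cells of other lineages contributed to these peaks was not tested.

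Short sequences from 4 widening regions near erythroid genes are given to show which DNA was covered at every time and which was covered later. A core is a stretch covered in all 10 lists, and an added stretch is covered in both 24 h lists and in neither 0 h list. Each line is the plus strand of GRCm38 (mm10) from the RefSeq genome around the GATA match nearest the middle of the longest core or added stretch, and capitals mark AGATAA, its variant AGATAG, the form TGATAA, its variant TGATAG, or their reverse complements. All of these windows lie outside protein-coding exons, within introns of Lmo2, Bcl2l1, Alas2 and Slc4a1.
Lmo2 core, chr2:103970859-103970978: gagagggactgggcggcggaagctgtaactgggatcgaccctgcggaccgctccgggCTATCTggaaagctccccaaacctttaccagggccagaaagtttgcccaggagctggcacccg
Bcl2l1 core, chr2:152804700-152804819: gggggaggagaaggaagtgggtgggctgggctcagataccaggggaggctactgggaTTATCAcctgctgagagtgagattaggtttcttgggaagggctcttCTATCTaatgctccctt
Lmo2 added, chr2:103974183-103974302: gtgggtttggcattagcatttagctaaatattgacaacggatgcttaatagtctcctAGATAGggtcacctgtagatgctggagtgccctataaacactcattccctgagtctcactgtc
Bcl2l1 added, chr2:152805851-152805970: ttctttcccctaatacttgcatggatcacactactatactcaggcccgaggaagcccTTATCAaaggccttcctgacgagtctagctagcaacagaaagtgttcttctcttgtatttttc
Alas2 added, chrX:150547781-150547900: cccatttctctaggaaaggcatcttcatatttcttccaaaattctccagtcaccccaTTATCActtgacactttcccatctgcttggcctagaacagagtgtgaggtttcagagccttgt
Slc4a1 added, chr11:102363144-102363263: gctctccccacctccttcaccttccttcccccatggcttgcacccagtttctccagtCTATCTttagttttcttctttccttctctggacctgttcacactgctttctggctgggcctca

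Lmo2 encodes a cofactor that joins GATA1 and TAL1, and Bcl2l1 encodes the survival protein Bcl-xL. The Lmo2 core of 4593 bp held 6 GATA matches and its longest added stretch of 1540 bp held 3. The Bcl2l1 core of 1344 bp held 2, as did its added stretch of 903 bp. Alas2, the erythroid form of the enzyme that starts heme synthesis, had 4 matches in an added stretch of 1906 bp that spans its TSS. Slc4a1, which encodes the red cell anion exchanger band 3, had 1 match in an added stretch of 1733 bp downstream of its TSS.

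Across the widening regions, the median covered length was 2101.5 and 2041.5 bp in the 0 h lists, 2452.5 and 2523.5 bp (2 h), 2681.5 and 2712.5 bp (6 h), 2787 and 2886.5 bp (12 h), and 3380.5 and 3128 bp (24 h). The 0 h and 24 h values chose the regions and are a description. The 3 times in between served only to require a peak and to set the bounds of the merged regions. Such a choice by itself tends to place their medians between the ends. Among these 3 times, the medians rose in order of time. In the other constant regions the 10 medians stayed between 2393 and 2561 bp. The median of the 24 h to 0 h ratio was 1.49 (interquartile range 1.37 to 1.73), the highest ratio was 4.75, and 180 regions (12.6%) at least doubled. The median region added 1100 bp, and the regions together added 1.84 Mb to the mean covered length.

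**Figure D1:**
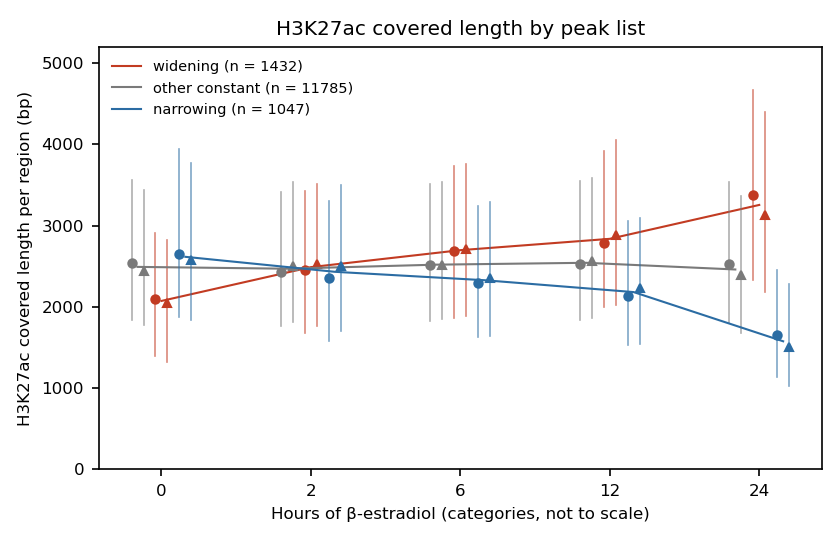
H3K27ac covered length per region in bp at each time of β-estradiol for the 1432 widening, 11785 other constant and 1047 narrowing regions (the narrowing regions are also among the other constant ones); circles are replicate 1 and triangles replicate 2 medians, bars the interquartile range over regions, and lines the mean of the 2 medians. The widening medians rose from 2101.5 and 2041.5 bp at 0 h to 3380.5 and 3128 bp at 24 h, ends that the selection rule used.

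At the limit of the rule, the 3 regions just inside were at Fem1b (means of 4256 and 5533 bp for 0 h and 24 h), near Cggbp1 (2028 and 2636.5 bp) and in a region of chromosome 12 with no protein-coding TSS within 50 kb (1531 and 1991 bp). The 3 just outside, which met the rest of the rule, were within E130308A19Rik (1566.5 and 2036 bp), at Got1 (3170.5 and 4120.5 bp) and at Atox1 (2376 and 3087.5 bp). In all, 3899 constant regions had both 24 h values above both 0 h values, and 2467 of them were under the ratio. The widening set is therefore the upper end of a continuous range.

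The highest ratio, 4.75, was at Sgsm3, which encodes a modulator of small G proteins (chr15:80977304-80983774). Its H3K27ac covered length was 1433 and 1286 bp (0 h), 2403 and 2730 bp (2 h), 5582 and 2715 bp (6 h), 2399 and 6011 bp (12 h), and 6456 and 6470 bp (24 h). The 6 h replicates differed widely, as did the 12 h ones, with 1 list long and the other short each time. The next ratio, 4.55, belonged to an intergenic region (chr14:69317748-69323148) whose nearest protein-coding TSS is that of Entpd4, at 14026 bp. It covered 1231 and 933 bp (0 h), 962 and 1222 bp (2 h), 1775 and 2513 bp (6 h), 1203 and 1199 bp (12 h), and 5367 and 4483 bp (24 h), so most of its length appeared after 12 h. The TSS of Slc25a37, which encodes the mitochondrial iron importer mitoferrin-1, lies 32.6 kb away, a gene named here after the values were seen.

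A region within Slc16a3, which encodes a lactate transporter, followed a steadier course (chr11:120949363-120953274, ratio 4.17). Its covered length was 803 and 901 bp (0 h), 970 and 1359 bp (2 h), 2195 and 2306 bp (6 h), 2832 and 3201 bp (12 h), and 3912 and 3194 bp (24 h). No value at 6 h or later overlapped those at 0 or 2 h. The other regions among the 8 highest ratios, from 3.99 to 3.61, were within Eif2b3, 7905 bp from the TSS of Nup160, 8048 bp from that of Gm6592, within Zfp341, and within Usp32. The most bases were added at Shld1 (6353.5 bp by the means), at Dnmt1, which encodes the maintenance DNA methyltransferase (6138 bp), within Kif21b (5357 bp), at Sgsm3 (5103.5 bp), at Ptdss2, a phosphatidylserine synthase gene (5102 bp), and within Usp32 (4882.5 bp). The values of Dnmt1 before 24 h went both ways: 7798 bp in 1 of the 2 h lists and 6499 bp in 1 of the 6 h lists, but 2122 to 3307 bp in the other 4.

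Globin, heme and membrane genes were among the regions with the TSS of a listed gene and the highest ratios. The gene lists are mostly of textbook erythroid biology, and 1 holds the promoters captured in the study. The list of erythroid genes activated by GATA1 also holds captured promoters, among them Alas2, Bach1, Btg2, Hbb-bs, Hebp1 and Mafk. Mpp1, which encodes the membrane protein p55, had a ratio of 2.72. At Hbb-bs, an adult beta-globin gene (chr7:103823650-103829242, ratio 2.38), H3K27ac covered 2208 and 2486 bp (0 h), 3443 and 2660 bp (2 h), 5364 and 3108 bp (6 h), 4957 and 3447 bp (12 h), and 5583 and 5574 bp (24 h). The 4 longest peaks reached beyond 4000 bp downstream of the TSS, up to 4278 bp at 24 h. Hba-a2, an alpha-globin gene, covered 2240 to 2713 bp in all 8 lists up to 12 h, and 6033 and 3317 bp at 24 h. Globin genes have near-identical copies, so reads kept only when uniquely mapped leave these 2 regions uncertain.

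At Alas2 (chrX:150546643-150552462, ratio 2.18), the H3K27ac peaks lay wholly downstream of the TSS in the 6 lists up to 6 h and spanned it in all 4 lists at 12 and 24 h. Their upstream edges were at 2365 and 1368 bp downstream of the TSS (0 h), 1179 and 2514 bp (2 h), and 2588 and 1646 bp (6 h). At 12 h and 24 h the edges were upstream, at -398 and -732 bp and at -634 and -538 bp. The covered length was 2360 and 2757 bp at 0 h and 5651 and 5495 bp at 24 h. Within the same region, H3K4me3 peaks started near the TSS in every list that had one, and extended to 705 and 875 bp (0 h) and to 2354 and 2413 bp (24 h).

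Slc4a1 (chr11:102361904-102366335, ratio 1.84) covered 2290 and 2491 bp (0 h), 1599 and 1527 bp (2 h), 2153 and 2385 bp (6 h), 3383 and 3276 bp (12 h), and 4406 and 4383 bp (24 h). It was shortest at 2 h and longest at 24 h, with no overlap between replicates of those times. Its downstream edge moved from 1576 and 1617 bp at 0 h to 3350 and 3376 bp at 24 h, while the upstream edge stayed between -714 and -1056 bp at the same 2 times. Sptb, which encodes beta-spectrin of the red cell skeleton (chr12:76703530-76713171, ratio 1.70), covered 5332 and 4746 bp (0 h), 5315 and 6906 bp (2 h), 7009 and 6850 bp (6 h), 8001 and 8716 bp (12 h), and 8766 and 8375 bp (24 h).

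**Figure D2:**
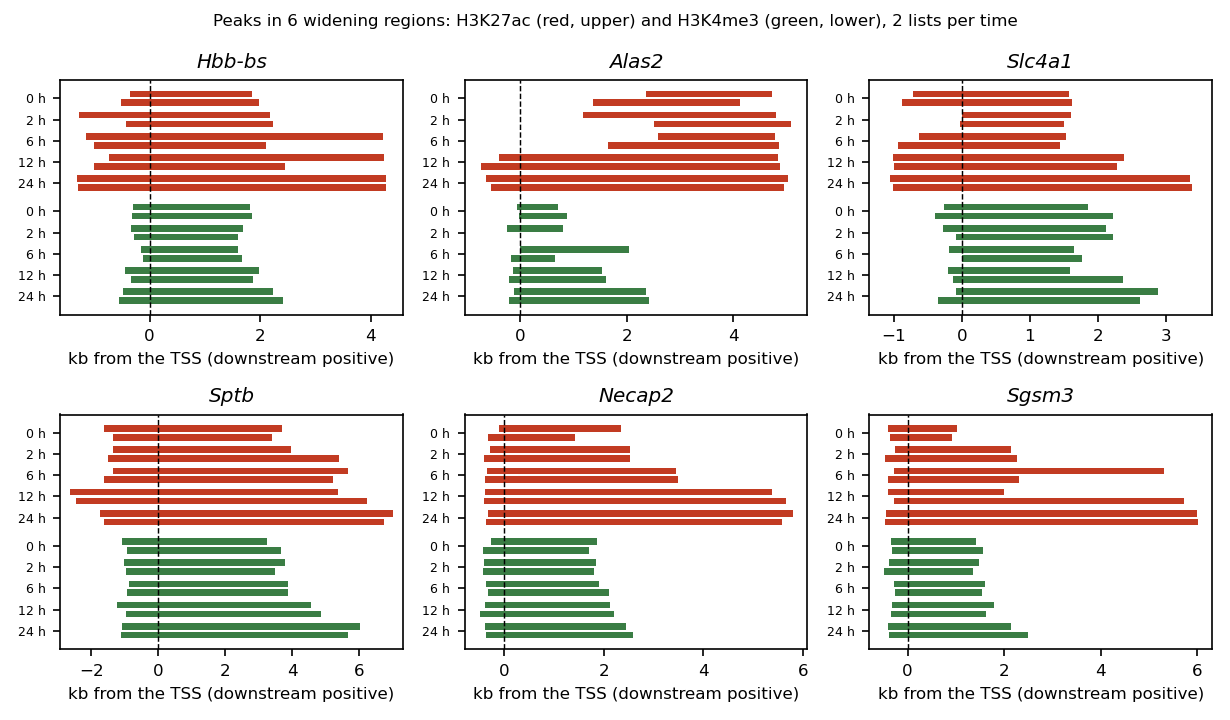
Extent of each H3K27ac peak (red, upper 10 rows) and H3K4me3 peak (green, lower 10 rows) at 6 widening regions, in kb from the TSS (dashed line) with downstream positive; rows are replicates 1 and 2 at each time. At Alas2 the H3K27ac peaks start 2365 and 1368 bp downstream of the TSS at 0 h and span it at 12 and 24 h, whereas at Necap2 and Sgsm3 the downstream edge moves outward.

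Other listed genes with a TSS in a widening region were Hebp1, a heme-binding protein gene (ratio 1.92), Ppox, the gene of the enzyme before the last step of heme synthesis (1.91), Btg2, an antiproliferative gene (1.87), Bach1, the gene of a heme-responsive repressor (1.67), and Trim10 (1.49). Of 45 erythroid genes activated by GATA1, 22 had a TSS in a constant H3K27ac region, and 12 of these lay in a widening one. The counts were 3 of 7 for heme synthesis, 4 of 8 for the red cell membrane skeleton, 2 of 5 for erythroid transcription factors and cofactors (Mafk and Nfe2l2), and 2 of 11 for autophagy and mitochondrial clearance (Bnip3l and Atg4d). Over all protein-coding genes, 710 of 8371 (8.48%) lay in a widening region. None of 10 iron genes, 9 genes of the progenitor and mast cell programme that GATA1 represses, 24 genes of small ribosomal subunit proteins and 4 megakaryocyte markers did. No gene on the mast cell, macrophage or lymphocyte marker lists had its TSS in a constant region. Of 20 captured promoters with a TSS in a constant region, 6 did, and the study chose that list on these cells. These 6 are also among the 12 of the list of genes activated by GATA1, so that count partly rests on the study's choice. The lists overlap (Alas2, for example, is in 3), and membership rests on the 0 h and 24 h values, so these counts are a description.

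Away from the single TSS taken per gene, Lmo2 had a widening region within its gene body, 8677 bp from that TSS. It covered 5500 and 4593 bp (0 h), 4967 and 5405 bp (2 h), 5478 and 6089 bp (6 h), 7730 and 7515 bp (12 h), and 7344 and 8309 bp (24 h). The 12 h values stood above every earlier value. In an intron of Bcl2l1, 25118 bp from its TSS, the covered length was 1435 and 1620 bp (0 h), 2565 and 3428 bp (2 h), 2427 and 2500 bp (6 h), 3221 and 3273 bp (12 h), and 3771 and 2441 bp (24 h). Both 2 h values stood above both 0 h values, while 1 of the 24 h values, 2441 bp, lay below both 2 h values. A region 2451 bp from the TSS of Abcb10, a mitochondrial transporter gene used in heme synthesis, covered 3393 and 5326 bp at 0 h and 7464 and 7445 bp at 24 h. Regions within Add1, which encodes the membrane skeleton protein alpha-adducin, and Steap3, an endosomal iron reductase gene, had ratios of 2.11 and 1.92, and the Add1 ratio rests on 1 list: 2319 and 6580 bp at 24 h.

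The question whether the regions lengthen over time can be asked of the 2, 6 and 12 h lists, whose covered lengths were not compared in the choice, although a peak was required in each and the merged bounds rest on them too. Of the 1432 widening regions, 619 (43.2%) had both 12 h values above both 2 h values, against 27.7% of all constant regions. In the opposite direction, 84 (5.87%) had both 12 h values below both 2 h values, against 12.5% of all constant regions. The narrowing regions had 105 (10.0%) above and 341 (32.6%) below. With a TSS the share of widening regions above was 41.7% (257 of 616), against 28.5% of other constant regions with a TSS, and without a TSS it was 44.4% (362 of 816), against 22.5%. The means rose from 2 to 6 to 12 h in 567 widening regions (39.6%), against 26.4% of all constant ones.

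By limma on log2(covered bp + 200), the median difference of 12 h minus 2 h was 0.16 in the widening regions and 0.05 in all constant regions, and 77.5% of the widening regions had a positive difference, against 62.8% of all. Single regions seldom passed the test with 6 lists: at a Benjamini-Hochberg adjusted p under 0.05, 1 widening region was longer and none was shorter, while 3 of all 13217 constant regions were longer (0.0227%). At an unadjusted p under 0.05, 279 widening regions (19.5%) were longer, against 836 of all constant regions (6.33%), and 21 (1.47%) were shorter, against 342 (2.59%). The region called was at Necap2, which encodes a protein of clathrin-coated vesicles (chr4:141072567-141078772). Its H3K27ac covered 2457 and 1742 bp (0 h), 2808 and 2945 bp (2 h), 3786 and 3878 bp (6 h), 5769 and 6069 bp (12 h), and 6126 and 5961 bp (24 h), with no overlap from 2 h to 12 h. The log2 difference of 12 h minus 2 h was 0.99 (SE 0.08, limma adjusted p = 0.0366), and it was not called when any 1 of the 6 lists was left out or when the replicate number was a block. Among the next lowest p-values were those near Slc6a9, in a region of chromosome 6, at Slc4a1 (adjusted p = 0.0687) and within Fryl, with adjusted p-values of 0.0647 to 0.0747.

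**Figure D3:**
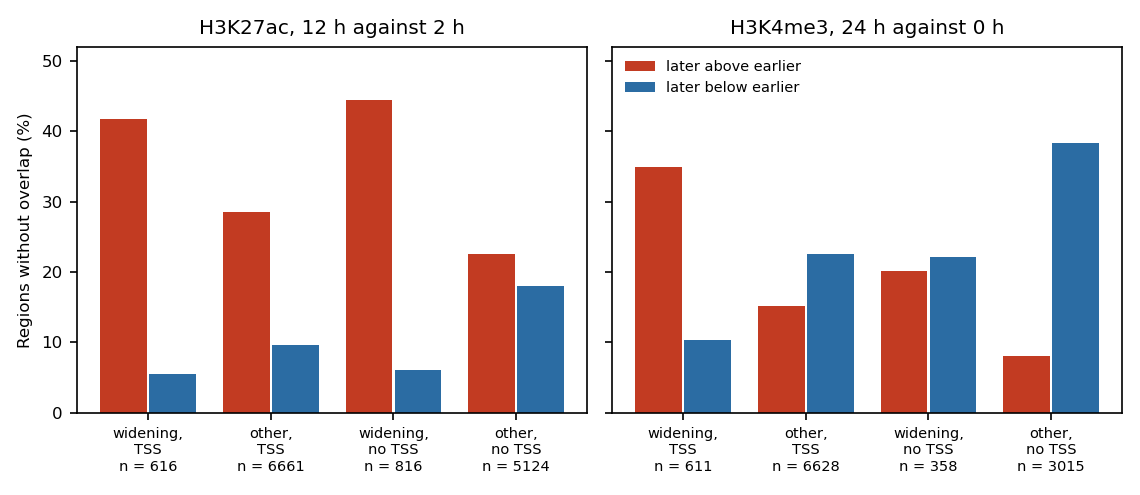
Percent of regions in which both later lists were above (red) or below (blue) both earlier lists, for H3K27ac at 12 h against 2 h (left) and H3K4me3 within the same regions at 24 h against 0 h (right); n is the number of regions. Without a TSS, 44.4% of widening regions had H3K27ac higher at 12 h, against 22.5% of other constant regions.

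The added bases lay at the outer edges of existing peaks, in the widening regions and in all constant regions alike. Added stretches were found in 1401 widening regions and came to 1123 kb, of which 98.9% lay at an edge and 1.11% in a gap between peaks, beside 98.7% and 1.31% over the 5631 constant regions with an added stretch. Both edges had moved in 671 widening regions (47.9% of those with an added stretch), against 20.8% of all, whose median added stretch was shorter (143 bp against 590 bp in the widening regions). There was 1 peak in the lists of both times in 1340 widening regions (95.6%), near the 96.3% of all. The other 31 widening regions had no base covered in both 24 h lists and neither 0 h list. H3K27ac peaks covered 36.5% and 44.7% of the added bases (2 h), 53.5% and 55.2% (6 h), and 63.9% and 65.8% (12 h). The replicates at each time did not overlap those of the next. The added stretches of the other constant regions, 654 kb in 4230 regions, took a similar course, with 39.8% and 45.6% covered at 2 h and 58.9% and 61.4% covered by 12 h. For the median widening region, 37.2% of the change from 0 to 24 h was present (2 h), 57.2% (6 h) and 71.2% (12 h). These shares are a description, because the 0 h and 24 h values that set the change also chose the regions.

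**Figure D4:**
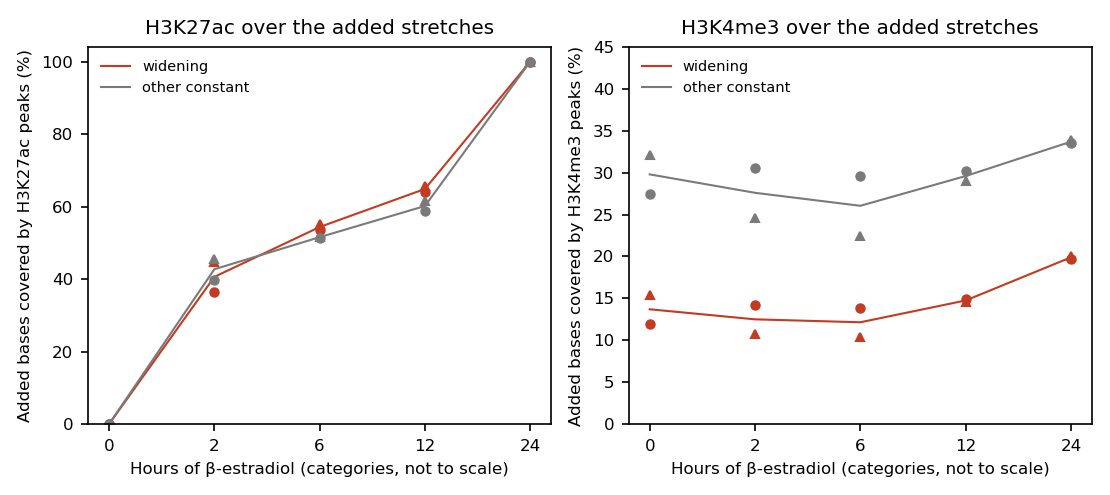
Percent of the added bases covered by H3K27ac peaks (left) and H3K4me3 peaks (right) at each time, for widening and other constant regions; circles are replicate 1, triangles replicate 2 and lines their mean. H3K27ac is at 0 and 100% at the ends by construction, and H3K4me3 cover of the widening regions' added bases was 19.7% and 20.1% at 24 h.

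At 531 widening regions with a single protein-coding TSS, the added bases lay mostly downstream, into the gene. Of the 523 with an added stretch, 398 (76.1%) gained more downstream and 125 more upstream, and 77.3% of the added bases were downstream. In the other constant regions, 1477 of 2367 (62.4%) gained more downstream and 887 more upstream, and 71.8% of the added bases were downstream. A downstream excess was therefore not particular to the widening regions, though a larger share of them had one. The median downstream edge was 1529 and 1501 bp from the TSS (0 h), 1748 and 1816 bp (2 h), 1917 and 1961 bp (6 h), 2046 and 2134 bp (12 h), and 2577 and 2347 bp (24 h). The median upstream edge moved less, from 928 and 907 bp at 0 h to 1124 and 1062 bp at 24 h. In other constant regions the downstream edge stayed between 1432 and 1562 bp.

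**Figure D5:**
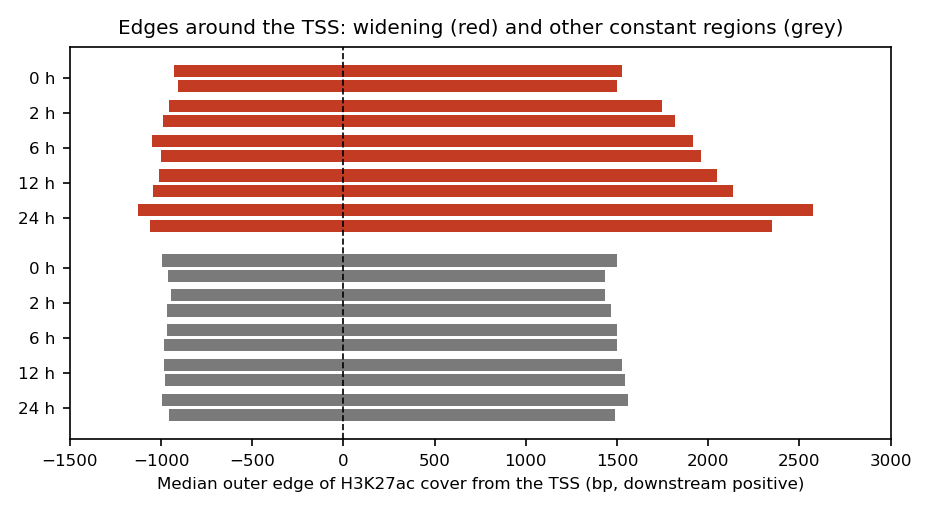
Median outer upstream and downstream edges of H3K27ac cover from the TSS (dashed line) in bp, at constant regions with 1 protein-coding TSS, as 1 bar per list with replicates 1 and 2 at each time. In the 531 widening regions (red) the downstream edge went from 1529 and 1501 bp at 0 h to 2577 and 2347 bp at 24 h, while in the 5702 other constant regions (grey) it stayed between 1432 and 1562 bp.

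By GENCODE M21, 616 widening regions (43.0%, 95% Wilson interval 40.5 to 45.6%) held a protein-coding TSS, 543 (37.9%) lay in a gene body and 273 (19.1%) between genes. A single TSS was taken per gene, so a region without one can still hold the start of another transcript. The shares in other constant regions were 56.5%, 23.2% and 20.3%, so gene bodies took a larger share and TSSs a smaller one among the widening regions. This order did not hold for strong peaks. With only peaks of the median score or more, the widening share with a TSS was 83.9% of 459 regions, against 80.6% of all constant regions. The widening regions had lower peak scores in every list, with a median top score of 208 to 254 against 338 to 409 in the other constant regions. Narrowing regions held a TSS in 16.2%, lay in a gene body in 39.8% and between genes in 43.9%. The larger gene body share and the smaller TSS share were therefore not particular to the widening regions.

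H3K4me3, read from other libraries than those behind the choice, was measured as its covered bp within the same H3K27ac regions. Parts of H3K4me3 peaks beyond a region's bounds were not counted. Those bounds rest on all H3K27ac lists, with those of 0 h and 24 h, so the measure is not wholly free of the choice. A peak was present in all 10 H3K4me3 lists in 843 widening regions (58.9%) and in none in 417 (29.1%), against 73.4% and 15.8% of the other constant regions. The test took the 969 widening regions that held an H3K4me3 peak in 2 or more lists, and the other 463 were not. Both 24 h values exceeded both 0 h values in 286 (29.5%), against 14.4% of all 10612 tested regions, and both were below in 142 (14.7%), against 26.3%. At TSSs the share above was 35.0% (214 of 611), against 15.1% in other constant regions with a TSS, and the share below was 10.3%, against 22.6%. Without a TSS, 72 widening regions (20.1%) were above and 79 (22.1%) below, against 8.06% and 38.3% of other constant regions without one. After division by each list's median peak length the split turned, with 169 of 710 widening regions above and 186 below, against 6.21% above and 48.2% below for all regions tested. The share above therefore stayed larger and the share below smaller than in all regions under both scalings, while the direction within the widening regions depended on the scaling.

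By limma, 16 of the 969 (1.65%) had longer H3K4me3 at 24 h at an adjusted p under 0.05, against 0.302% of all tested regions (32), and 5 (0.516%) had shorter H3K4me3, against 0.848% (90). At an unadjusted p under 0.05, 137 (14.1%) were longer, against 3.49% of all tested regions, and 44 (4.54%) were shorter, against 8.21%. With only peaks of the median score or more, limma called none of 400 tested longer (44 at an unadjusted p under 0.05), against 0.101% of all 5938 tested (2.81% unadjusted). With a replicate block 10 were called longer, against 0.198% of all. The count of 5 shorter regions moved more: it was 15 when only the 4 lists of 0 and 24 h were fitted (2.54% of all tested) and 0 among regions with an H3K4me3 peak in all 10 lists (0.0843%). A TSS lay in 11 of the 16 and in none of the 5. At Sptb, H3K4me3 covered 4351 and 4615 bp (0 h), 4830 and 4472 bp (2 h), 4762 and 4794 bp (6 h), 5822 and 5833 bp (12 h), and 7127 and 6783 bp (24 h). All 4 values at 12 and 24 h were above all 6 earlier ones, and the log2 difference of 24 h minus 0 h was 0.61 (SE 0.05, limma adjusted p = 0.00393). Necap2 went from 2134 and 2112 bp at 0 h to 2820 and 2938 bp at 24 h (log2 difference 0.41, SE 0.04, adjusted p = 0.00757). Sgsm3 went from 1759 and 1896 bp to 2542 and 2883 bp (0.52, SE 0.07, adjusted p = 0.0238), and Ptdss2 from 2038 and 1879 bp to 3258 and 3225 bp (0.67, SE 0.10, adjusted p = 0.0274).

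Among the 13 regions called longer that had an H3K4me3 peak in both 0 h lists, the largest fitted rise was within Cit, the gene of citron kinase, which acts in cell division (chr5:115942888-115950448). H3K4me3 covered 1015 and 1153 bp at 0 h and 3775 and 3643 bp at 24 h, a log2 difference of 1.61 (SE 0.09, limma adjusted p = 0.000851). Ctsb, which encodes the lysosomal protease cathepsin B, went from 2545 and 2818 bp to 3469 and 3505 bp. Fam83d, the gene of a spindle protein, went from 2274 and 2462 bp to 3478 and 3907 bp. The others called were Nme4, Reep5, Slc43a3 and Samsn1 at their TSSs, and regions within Sept4 and Pfkm. In 3 called regions no H3K4me3 peak was listed at 0 h in either list. They were within Clcn3 (2348 and 2373 bp at 24 h), at Gfap (1297 and 1119 bp) and within Pacsin2 (890 and 1520 bp).

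The 5 regions with shorter H3K4me3 lay away from TSSs. Within B3galnt2, H3K4me3 covered 1087 and 1047 bp at 0 h and was listed at 0 in both 24 h lists, while H3K27ac grew from 3541 and 3670 bp to 6687 and 6422 bp. Within Togaram1 it covered 1315 and 1550 bp at 0 h, and near Btbd10 1039 and 773 bp, and both had no peak at 24 h. Within Traf3, with Amn as the nearest TSS, the peaks of 939 and 911 bp at 0 h were absent from all 8 later lists. Within Cog5 the values went from 1197 and 1604 bp to 523 and 700 bp. In these 5 regions the marks moved in opposite directions, with the H3K27ac direction fixed by the choice of regions.

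Over the added stretches, H3K4me3 peaks covered 12.0% and 15.4% of the bases (0 h), 14.2% and 10.8% (2 h), 13.9% and 10.4% (6 h), 14.9% and 14.6% (12 h), and 19.7% and 20.1% (24 h). Only the 24 h values stood clear of all earlier ones. The added stretches of the other constant regions had more cover, 22.5% to 32.1% up to 12 h and 33.5% and 33.9% at 24 h. Values at 24 h clear of the earlier ones were thus not particular to the widening regions. Over the cores the cover was 60.9% to 64.3% in all 10 lists, against 70.1% to 73.9% in the other constant regions. In every list, most of the added bases held no H3K4me3 peak.

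CTCF was mapped once per time, so there is no replicate check. A CTCF peak lay in 431 widening regions (30.1%) at 0 h and 561 (39.2%) at 24 h, beside 31.5% and 39.0% of the other constant regions. The lists themselves held 33193 peaks at 0 h and 41473 at 24 h. Added stretches touched a CTCF peak in 151 widening regions at 0 h and in 207 at 24 h, of which 142 had one at both times. These were 10.8% and 14.8% of the widening regions with an added stretch, beside 7.66% and 10.1% of the other constant regions with one, whose added stretches were shorter.

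Windows of 300 bases were searched on both strands for GATA letters (AGATAA, its variant AGATAG, the form TGATAA and its variant TGATAG), for CCNCNCCC, which the KLF factors bind, and for TGANTCA, which AP-1 and NF-E2 bind. The windows were centred on the longest core or added stretch of each region with at least 300 bp of it. GATA letters were in 40.4% of 1409 cores of widening regions, against 30.3% of other constant cores and 31.3% of all. Without a TSS the shares were 55.7% of 797 and 46.7% of 5035, at a median GC content of 47.7% and 48.0%. The same letters read backwards, a guide to what base composition gives, were in 30.7% and 30.6% of those cores. With a TSS, GATA letters were in 20.4% and 17.8%. Narrowing regions, of which 16.2% held a TSS, had GATA letters in 45.8% of 1027 cores and the backward letters in 29.3%. Over all cores, a raised share of GATA letters was therefore not particular to the widening regions. The narrowing cores were not split by TSS, so the 55.7% of widening cores without a TSS has no matching narrowing value.

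In the added stretches, GATA letters were in 47.6% of 957 windows of widening regions, 47.7% of 505 windows of other constant regions and 47.7% of all 1462, and the backward letters in 34.5%, 41.6% and 36.9%. KLF letters were in 41.7% of the cores (47.2% in other constant regions, 46.6% of all) and 24.2% of the added stretches (21.6% and 23.3%). AP-1 and NF-E2 letters were in 7.38% of the cores (6.48% and 6.58%) and 8.67% of the added stretches (7.92% and 8.41%). A match describes letters, not a bound site.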

How the data were processed

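ChIP-seq peak lists of H3K27ac, H3K4me3 and CTCF were analyzed from the deposited peak positions and scores. The authors aligned histone reads to mm10 with Bowtie2 at default settings, kept uniquely mapped reads and called peaks per library with MACS without its model; its version, control and threshold, and the CTCF methods, are not given in the sources used here. The sample descriptions name a human build, but the positions fitted mouse. The deposited score, from 50.0 to 3176.4, appears to be the caller's significance and was used only to filter and rank. Depth is unknown.

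The members and gene lists were chosen with earlier results of these data known. Covered bp per region and list was tested with limma 3.58.1 (R 4.3.3, trend) on log2(covered bp + 200), which understates changes of short values. The Benjamini-Hochberg adjustment ran over all 13217 constant regions for H3K27ac. For H3K4me3 it ran over the 10612 constant regions with an H3K4me3 peak in at least 2 lists. On simulated data with normal noise for the same regions, limma recovered 61.5% of 200 changes of 1 log2 unit for H3K27ac, with 7 false calls. For H3K4me3 it recovered 81.0%, with 16 false calls. Genes came from GENCODE M21 with a single TSS per gene, chosen by annotation rank and then transcript length. A region took a protein-coding TSS within it, otherwise the nearest within 50 kb. Named regions were the 8 highest ratios, the 6 with most bp added, up to 12 with a listed gene's TSS, 3 on each side of the ratio of 1.3, and the 6 lowest p for 12 h against 2 h; called regions and regions near erythroid genes were added after their values were seen. Alternatives varied peak score, merging, scaling, pseudocount, filters, samples and replicate block. Some items that the naming rules select are not reported here.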

Additional observations from a re-analysis of the deposited data

How the results depend on the processing

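With only peaks of the pooled median score or more, the widening regions fell to 459, with 190 (41.4%) above from 2 h to 12 h against 29.5% of all constant regions, 0 called longer by limma for either mark (88 and 44 at an unadjusted p under 0.05), and 98 above for H3K4me3; the share with a TSS was 83.9%. Ratios of 1.2 and 1.5 gave 2190 and 682 regions, and division by each list's median peak length 1100, of which 425 were above from 2 h to 12 h. Under that scaling 169 were above for H3K4me3, with 186 below. Without 1 of the 0 h and 24 h lists, 1425 to 2074 regions widened (2074 without the 24 h replicate 2 list). Without 1 list, 787 to 920 were above from 2 h to 12 h (190 to 265 below), and 350 to 495 above for H3K4me3 (495 without 0 h replicate 2, 430 without 24 h replicate 1), with 209 to 330 below. A single list makes overlap likelier to be absent, so these counts rise by construction. For H3K27ac at 12 h against 2 h, limma called 8 widening regions in a fit to all 10 lists, 0 with a slope over the times (284 at an unadjusted p under 0.05) and 0 without any 1 list (195 to 302). For H3K4me3 at 24 h against 0 h it called 4 among regions with a peak in all 10 lists and 7 to 20 without 1 list (7 without 24 h replicate 1, 10 without 24 h replicate 2). The 5 regions with shorter H3K4me3 became 15 when only the 4 lists of 0 and 24 h were fitted, 9 with a pseudocount of 50 bp or with a peak in at least 1 list, 3 with the replicate block, 2 with the score minimum, 0 with a peak in all 10 lists and 4 to 10 without 1 list (8 to 10 without either 0 h or 2 h list or 24 h replicate 2). A TSS of any gene type lay in 47.8%. With the replicate block, limma called 0 widening regions for H3K27ac (274 at an unadjusted p under 0.05) and 10 for H3K4me3; replicates of the same number did not deviate together (correlations of -0.082 to 0.042), so they share only a number. The other alternatives kept the counts of widening regions, of regions above and of regions called by limma within 1.5 times of the reported one, and the other shares with a TSS within its interval. Depth is not recorded in peak lists, so its part in peak length could not be assessed.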

Other observations

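Another widening region lay within 50 kb of 351 widening regions (24.5%), while 16.5% of the other constant regions and 10.3% of the narrowing ones had a widening region that near. The 351 formed 158 clusters, of which 31 held at least 3 regions and 4 held at least 4. At Sgsm3 (chr15:80977304-81051355) all 4 constant regions of the span widened, with ratios from 2.13 to 4.75 and 11562 bp added in sum. Between Nup160 and Fnbp4 (chr2:90659486-90717203) all 4 did too, with ratios from 1.41 to 3.96. At Pde4a, Keap1 and Atg4d on chromosome 9, 4 of 5 did. Neighbouring regions may share a gene or a domain, so they are not independent. The share of constant regions that widened ran from 8.52% on chromosome X to 14.6% on chromosome 12, apart from chromosome Y, where it was 4 of 18.

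Alad, the heme synthesis gene after Alas2, had its TSS in a narrowing region, as did Trf (transferrin), Sqstm1 (an autophagy receptor) and, among genes repressed by GATA1, Rgs1 and Etv5. Over the bases lost by 24 h in the narrowing regions, H3K27ac peaks covered 61.3% and 70.5% (2 h), 61.7% and 61.2% (6 h), and 48.6% and 51.2% (12 h).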
